A study of Mus musculus with 68 samples.

Results

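The trophectoderm (TE) of mouse blastocysts that had received a morpholino against *Max* was compared directly with the TE of blastocysts that had received one against *Mcrs1*. The 4 libraries were chosen by their labels alone, as those titled TE with a morpholino against either gene, and make up 4 of the 68 libraries of the series. A morpholino (MO) is a modified antisense oligonucleotide that blocks translation or splicing of its target RNA, and "Max MO" and "Mcrs1 MO" name the injected groups below. Fertilized zygotes, obtained per the methods by mating C57BL/6j mice, were injected and grown to blastocysts, and TE and inner cell mass (ICM) cells were picked apart by hand from their size, shape and place in the embryo. Each library was made by Smart-seq2, a full-length assay of polyadenylated RNA, from a pool of 10 cells, with 2 libraries per group described as biological replicates. The labels do not say whether these came from separate embryos, so the p-values measure only the spread between these libraries. The morpholinos differed in dose as well as in target: per the methods, Max MO was injected at a higher concentration than Mcrs1 MO, and the control morpholino, which carries a random sequence, at a higher one still. The effects of dose and target cannot be told apart here. The 2 control TE libraries are titled control but listed as untreated, while the methods describe an injected control morpholino, so it is not certain which they are. They are printed beside the values and took no part in the comparison.

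MAX is a basic helix-loop-helix leucine zipper protein that pairs with MYC proteins to activate genes, and with MXD, MNT and MGA proteins to repress them, through the E-box CACGTG. MCRS1 belongs to the NSL complex, which holds the histone H4 acetyltransferase KAT8, and is also found in the INO80 chromatin remodelling complex. The TE is the outer epithelium of the blastocyst, which pumps fluid into the cavity and forms the placenta, and the ICM holds the pluripotent cells and the primitive endoderm. The question here is which genes a loss of one factor affects in the TE and a loss of the other does not.

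The 4 TE libraries held between 2.09 and 3.19 gigabases of aligned sequence by the deposited coverage, with the Mcrs1 MO libraries at 2.09 and 2.25 and the Max MO libraries at 3.05 and 3.19. The control TE libraries held 1.00 and 2.23 gigabases, and their replicate 1 was the lowest of the 12 fertilized libraries. In the 4 TE knockdown libraries, between 10146 and 10445 genes reached 1 TPM, a transcript abundance scaled for transcript length and library size. Pearson correlations over genes, on log2(TPM + 1), were 0.961 between the Max MO libraries, 0.969 between the Mcrs1 MO libraries and 0.950 to 0.952 between libraries of the different knockdowns. No 2 of the 12 fertilized libraries held identical values.

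The TE identity of the libraries was checked with 20 TE markers. Of these, 19 passed the filter on low values and *Esx1* was listed at 0 in all 4 libraries. The keratins *Krt8* and *Krt18* were among the most abundant genes, with *Krt8* at 9192 and 9671 TPM in Max MO and at 6780 and 7001 TPM in Mcrs1 MO. *Cdx2*, the TE transcription factor, was at 22.8 and 30.8 TPM in Max MO and at 31.4 and 20.3 TPM in Mcrs1 MO. The summed TPM of the TE list was 23422 and 24724 in Max MO, 18830 and 18655 in Mcrs1 MO, and 25793 and 23597 in control TE. In the knockdown TE libraries most of this sum was *Krt8* and *Krt18*. *Krt18* was at 9675 and 10866 TPM in Max MO and at 7742 and 8096 TPM in Mcrs1 MO. Within each knockdown the TE list summed higher in both TE libraries than in either ICM library, but the lineages were not equally separate in the 2 knockdowns. The TE list summed to 4279 and 7392 TPM in the Max MO ICM and to 14613 and 10824 TPM in the Mcrs1 MO ICM. Correlations between TE and ICM libraries were 0.875 to 0.886 with Max MO and 0.940 to 0.949 with Mcrs1 MO. The 2 ICM libraries of a group correlated at 0.940 with Max MO and at 0.946 with Mcrs1 MO. The control ICM libraries also stood apart from each other, with 19362 TPM of TE markers in replicate 1 and 1630 TPM in replicate 2. Replicate 1 of the control ICM thus lay above both Mcrs1 MO TE libraries, so this sum alone does not settle the lineage of a library.

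The 20 markers of the ICM and pluripotency moved with the comparison. Their summed TPM was 5698 and 5188 in the Max MO TE, 6899 and 7253 in the Mcrs1 MO TE, and 3871 and 4485 in control TE. In the ICM the sums were 13139 and 14560 with Max MO and 6842 and 8139 with Mcrs1 MO. The TE and ICM libraries of Mcrs1 MO thus overlapped in this sum. No defining marker was at 0 in both Mcrs1 MO TE libraries, while *Fgf4*, a signal from the epiblast, and *Sox21* were at 0 in both Max MO TE libraries. *Pou5f1*, which encodes OCT4, was at 89.2 and 85.3 TPM in Max MO and at 102 and 78.2 TPM in Mcrs1 MO, so that the groups overlapped. The sum of the ICM list was higher in both Mcrs1 MO libraries than in either Max MO library. Fewer ICM cells in a pool and less RNA per cell cannot be told apart in such libraries, and the part of the ICM markers in the results below was not tested. The primitive endoderm list summed to 858 and 1121 TPM in Max MO and to 718 and 696 TPM in Mcrs1 MO, with 4 of its genes at 0 in both Max MO libraries and 2 in both Mcrs1 MO libraries, and most of the sum was *Dab2*, which the TE also expresses. Of 20 cumulus cell markers, 2 passed the filter, and the sums over the list were at most 7.67 TPM in these 4 TE libraries.

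**Figure D1:**
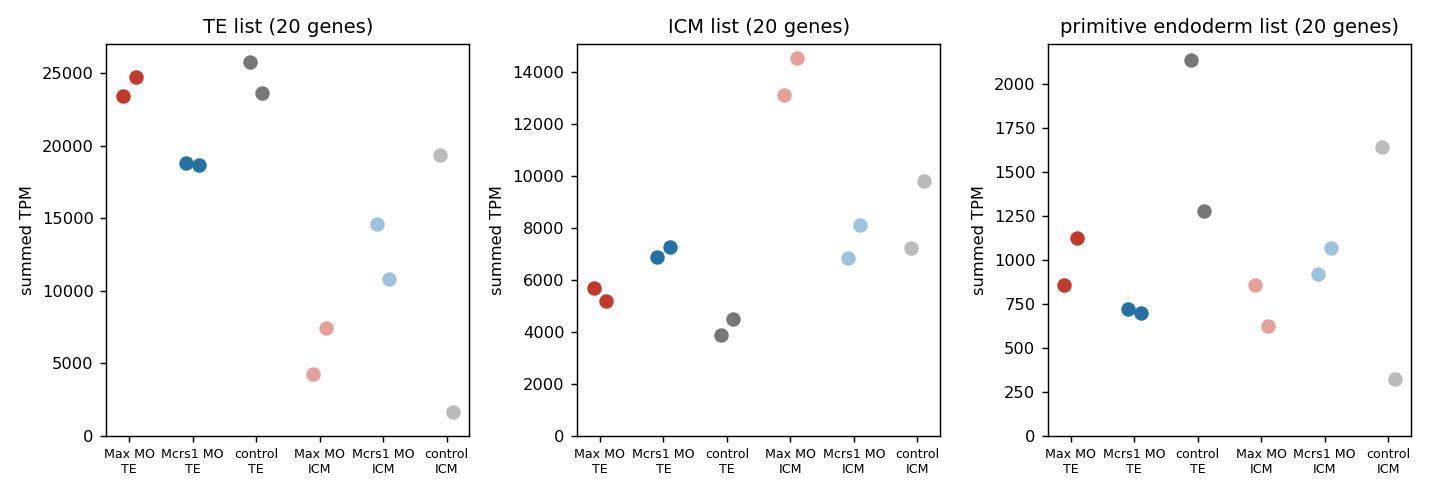
Summed TPM of 20 TE, 20 ICM and 20 primitive endoderm markers, 1 point per library, for the TE and ICM of Max MO, Mcrs1 MO and control embryos. The Mcrs1 MO TE libraries, at 6899 and 7253 TPM of ICM markers, sit above the Max MO TE libraries at 5698 and 5188, and the Mcrs1 MO ICM keeps 14613 and 10824 TPM of TE markers.

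*Mcrs1* separated the groups and *Max* did not. *Mcrs1*, on chromosome 15 of mm10 from 99242817 to 99251961 on the minus strand, was at 206 and 194 TPM in Max MO and at 41.1 and 45.5 TPM in Mcrs1 MO, against 219 and 294 TPM in control TE. Its level in Max MO was 4.54-fold that in Mcrs1 MO on the log2(TPM + 1) scale (difference 2.18, standard error 0.18, limma adjusted p = 0.00187). *Max*, on chromosome 12 from 76937269 to 76962248 on the minus strand, was at 16.3 and 8.68 TPM in Max MO, at 17.6 and 15.7 TPM in Mcrs1 MO, and at 34.5 and 28.5 TPM in control TE. Its difference of -0.44 had a standard error of 0.69 and an adjusted p of 0.870 by the same limma fit. The 95% interval, from -1.97 to 1.08, spans more than 2-fold in both directions. A difference in *Max* RNA was thus neither detected nor excluded. The spread behind this interval is shared with the ICM libraries. In a limma fit of the 4 TE libraries alone the difference was again -0.44, with a standard error of 0.37 (adjusted p = 0.609). *Max* was lower in all 4 knockdown TE libraries than in either control TE library, and no test of it against control is given here. An MO that blocks translation leaves its target RNA in place, and the mode of action of each MO is not given in the sources used here. Per the methods, the efficiency of the knockdowns was measured in morulae or blastocysts by quantitative RT-PCR, which reads RNA. In the ICM *Max* was at 6.82 and 0.443 TPM with Max MO and at 14.4 and 9.25 TPM with Mcrs1 MO.

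**Figure D2:**
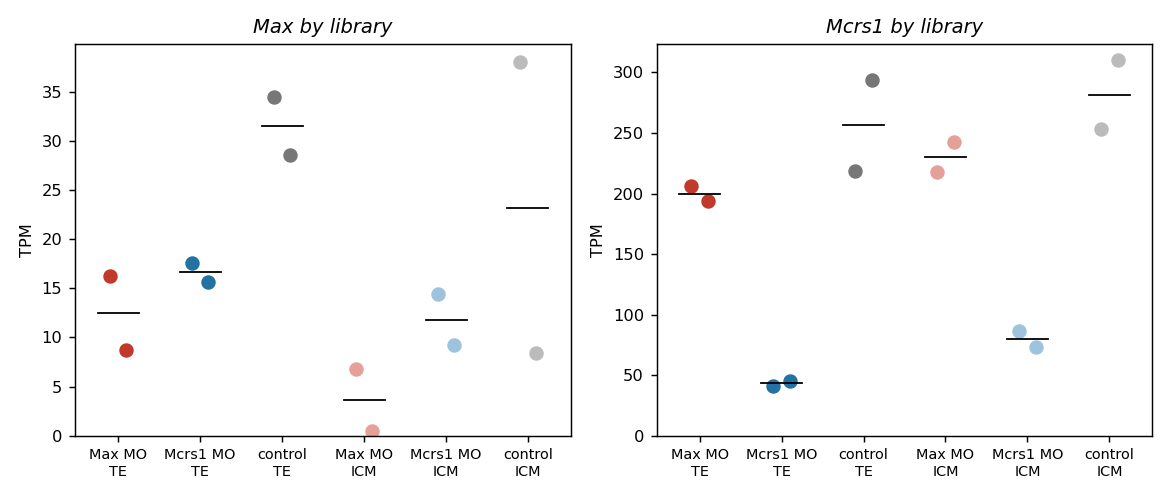
TPM of *Max* and *Mcrs1* in each library of the fertilized blastocysts, 1 point per library and a line at the mean of 2. *Mcrs1* lies at 41.1 and 45.5 TPM with Mcrs1 MO and at 206 and 194 TPM with Max MO in the TE, while the *Max* points of these groups lie between 8.68 and 17.6 TPM.

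The promoter windows of the 2 targeted genes are shown because MAX binds CACGTG and one of them holds it. They are from RefSeq on GRCm38.p6, from 250 bases before to 50 after the start, 5′ to 3′ along the gene, with CACGTG in capitals. The *Max* window is chr12:76962199-76962498 on the minus strand, and its E-box begins 3 bases before the start. The *Mcrs1* window is chr15:99251912-99252211 on the minus strand and has no match to these letters.
Max: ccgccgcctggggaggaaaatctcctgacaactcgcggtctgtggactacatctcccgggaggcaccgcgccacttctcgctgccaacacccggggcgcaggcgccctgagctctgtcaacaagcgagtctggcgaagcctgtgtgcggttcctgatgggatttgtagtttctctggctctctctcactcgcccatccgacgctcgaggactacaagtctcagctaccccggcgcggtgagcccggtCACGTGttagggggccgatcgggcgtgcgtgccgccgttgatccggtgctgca
Mcrs1: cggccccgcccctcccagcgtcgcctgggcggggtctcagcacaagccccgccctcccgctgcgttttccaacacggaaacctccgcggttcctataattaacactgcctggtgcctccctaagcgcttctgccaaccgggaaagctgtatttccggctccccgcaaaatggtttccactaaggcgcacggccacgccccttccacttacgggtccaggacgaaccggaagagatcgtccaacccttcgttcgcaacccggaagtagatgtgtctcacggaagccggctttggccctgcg

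Over all genes, few differences between the TE of the 2 knockdowns passed the threshold. Of 10844 genes with a mean of at least 1 TPM over the 8 knockdown libraries, 13 were at least 2-fold apart with a limma adjusted p under 0.05, which is 0.12% of the genes tested. Of these, 6 were higher in Max MO (0.0553%) and 7 higher in Mcrs1 MO (0.0646%). An unadjusted p under 0.05 was found for 1156 genes (10.7%), 633 of them higher in Max MO and 523 higher in Mcrs1 MO. The groups of 2 did not overlap for 5113 genes (47.2%), with Max MO higher for 26.5% and Mcrs1 MO higher for 20.7% of the genes tested. The median difference was 0.04 on the log2(TPM + 1) scale and the median standard error 0.43. The 95% interval lay within 2-fold for 3622 genes, or 33.4%, and for 6246 genes it both included 0 and reached past 2-fold, so that most genes were neither shown to differ nor shown to be alike. A permutation test of 2 against 2 libraries cannot go below p = 0.333. The genes passing depended on single libraries. Leaving out 1 TE library leaves 1 library in a group, and of the 13 genes only *Mcrs1* passed in each of these fits. The number of genes passing was 58 in a fit of the 4 TE libraries alone and 3 (0.0267%) in a fit of all 12 libraries. It was 8 with a pseudocount of 0.1, and 0 when every gene above 0 TPM in a library was tested (1498 genes with an unadjusted p under 0.05).

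The genes higher in Max MO besides *Mcrs1* were a sarcomeric actin, 2 overlapping MHC class I genes, a long noncoding RNA and a mitochondrial enzyme. *Actc1*, cardiac alpha-actin, on chromosome 2 from 114047289 to 114052811 on the minus strand, was at 21.7 and 18 TPM in Max MO and at 0.205 and 0 TPM in Mcrs1 MO. The control TE libraries split, at 17.6 and 0 TPM. Its difference was 4.24 with a standard error of 0.52 (limma adjusted p = 0.0118), and it passed the threshold in 7 of 14 alternatives. *H2-D1*, which presents peptides to T cells, on chromosome 17 from 35263094 to 35267497 on the plus strand, was at 395 and 376 TPM in Max MO and at 123 and 138 TPM in Mcrs1 MO, with control TE between them at 249 and 328 TPM. Its difference was 1.56 with a standard error of 0.17 (limma adjusted p = 0.00488; 10 of 14 alternatives). *H2-L*, from 35263123 to 35266730, lies within *H2-D1* and showed 489 and 474 TPM against 151 and 167 TPM. MHC class I genes are near-identical in sequence, so the division of reads between these symbols is uncertain. *Malat1*, an abundant nuclear RNA, on chromosome 19 from 5795690 to 5802671 on the minus strand, was at 454 and 414 TPM in Max MO, at 120 and 178 TPM in Mcrs1 MO, and at 247 and 190 TPM in control TE. Its difference of 1.56 (standard error 0.24, limma adjusted p = 0.0383) held in 5 of 14 alternatives. *Clybl*, which encodes citramalyl-CoA lyase, on chromosome 14 from 122181694 to 122402234 on the plus strand, was at 147 and 160 TPM in Max MO and at 57.3 and 55.0 TPM in Mcrs1 MO. It was at 108 and 98.0 TPM in control TE, between the knockdowns, with a difference of 1.43 (standard error 0.19, limma adjusted p = 0.0164; 7 of 14 alternatives).

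The next 6 genes in this direction, by unadjusted p, missed the threshold with limma adjusted p between 0.0532 and 0.0686. *Anxa4*, a calcium-dependent membrane-binding annexin of epithelia, was at 63.0 and 58.2 TPM in Max MO and at 14.4 and 18.9 TPM in Mcrs1 MO. *Cbx7*, a chromodomain subunit of Polycomb repressive complex 1, was at 41.1 and 43.4 TPM against 11.1 and 8.95 TPM. *Sin3b*, a scaffold of histone deacetylase complexes to which MXD proteins recruit, was at 252 and 252 TPM against 138 and 109 TPM. *Pja1*, a ubiquitin ligase, was at 34.9 and 35.2 TPM against 7.81 and 10.1 TPM. *Hrsp12*, which encodes an enamine deaminase, and *Bphl*, a hydrolase, had differences of 2.18 and 1.83. For *Anxa4*, *Cbx7* and *Pja1* the Max MO mean was 0.12, 0.19 and 0.11 above the control TE mean on the log2(TPM + 1) scale, and the Mcrs1 MO mean 1.70, 1.80 and 1.75 below it.

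The genes higher in Mcrs1 MO were led by genes that were also high in the ICM libraries. *Spic*, an ETS-family transcription factor of the ICM list, on chromosome 10 from 88675270 to 88683023 on the minus strand, was at 2.68 and 21.3 TPM in Max MO and at 243 and 499 TPM in Mcrs1 MO. The difference was -5.27 with a standard error of 0.69 (limma adjusted p = 0.0164; 9 of 14 alternatives). Control TE again split, at 16.5 and 210 TPM, and all 4 knockdown ICM libraries lay between 238 and 485 TPM. *Tdh*, threonine dehydrogenase, the enzyme that feeds one-carbon metabolism in mouse pluripotent cells, on chromosome 14 from 63492347 to 63509092 on the minus strand, was at 0 and 0.944 TPM in Max MO and at 21.3 and 18.8 TPM in Mcrs1 MO. Its difference was -3.92 with a standard error of 0.42 (limma adjusted p = 0.00488; 9 of 14 alternatives), and control TE was at 0 and 15.5 TPM. *Serpinb1a*, an inhibitor of neutrophil proteases, on chromosome 13 from 32842092 to 32851185 on the minus strand, was listed at 0 in both Max MO libraries and was at 8.74 and 17.4 TPM in Mcrs1 MO (limma adjusted p = 0.0118; 9 of 14 alternatives). No fold is given for it. *Mgarp*, a mitochondrial protein, on chromosome 3 from 51388413 to 51396547 on the minus strand, was at 18.6 and 39.2 TPM in Max MO and at 125 and 181 TPM in Mcrs1 MO (difference -2.43, standard error 0.35, limma adjusted p = 0.0299; 8 of 14 alternatives). *Serpine2*, a secreted inhibitor of thrombin and urokinase, on chromosome 1 from 79794321 to 79858665 on the minus strand, was at 111 and 146 TPM in Max MO and at 485 and 410 TPM in Mcrs1 MO (difference -1.80, standard error 0.27, limma adjusted p = 0.0383; 6 of 14 alternatives). *Serpine2* was at 251 and 67.3 TPM in control ICM and at 151 and 68.1 TPM in control TE, all below the Mcrs1 MO TE.

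The remaining genes past the threshold were named after their values were seen, since one was under the mean of 5 TPM set for naming and the other is a small RNA gene of uncertain mapping. *Ephx2*, soluble epoxide hydrolase, on chromosome 14 from 66084372 to 66124522 on the minus strand, had 0 and 0.0455 TPM in Max MO and 11.3 and 5.24 TPM in Mcrs1 MO (limma adjusted p = 0.0311; 6 of 14 alternatives). *Snord100*, a small nucleolar RNA gene on chromosome 10 from 23785754 to 23785821 on the minus strand, had 0.0711 and 0 TPM in Max MO and 12.5 and 8.35 TPM in Mcrs1 MO (limma adjusted p = 0.0299; 6 of 13 alternatives). Polyadenylated RNA assays do not capture such RNAs directly. *Actc1*, *Malat1*, *Clybl*, *Serpine2*, *Ephx2* and *Snord100* each missed the threshold whenever 1 TE library was left out. The 7 genes next on the Mcrs1 MO side, by unadjusted p, missed the threshold with limma adjusted p between 0.0532 and 0.0708. *Hspb1*, a small heat shock protein, was at 73.6 and 110 TPM in Max MO and at 240 and 205 TPM in Mcrs1 MO. *Aqp8*, an aquaporin, was at 0.25 and 2.60 TPM against 30.7 and 10.8 TPM. *Tcl1*, a coactivator of AKT in early embryos, was at 3.65 and 8.82 TPM against 32.3 and 31.7 TPM. *Hat1*, which acetylates newly made histone H4, was the most abundant of these, at 637 and 727 TPM against 1125 and 1157 TPM, and its difference was -0.74. *Plod2*, a collagen lysyl hydroxylase, *Rnf130*, a ubiquitin ligase, and *St6galnac4*, a sialyltransferase, had differences of -2.26, -2.02 and -2.74.

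**Figure D3:**
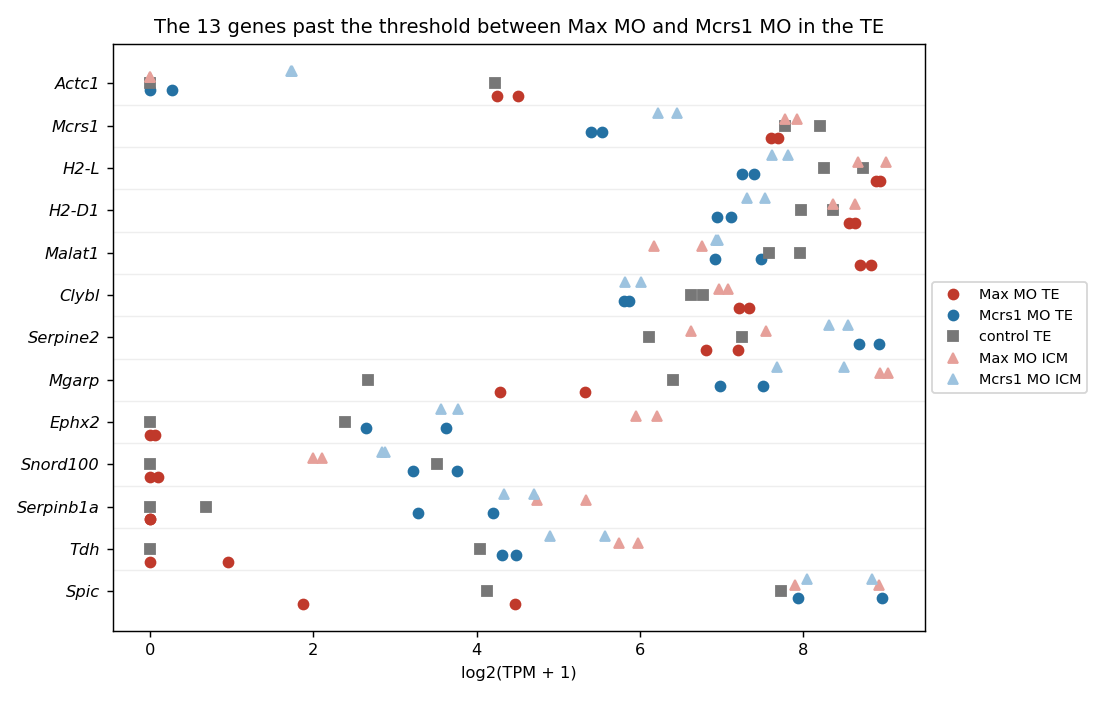
Expression of the 13 genes past the threshold, as log2(TPM + 1), 1 point per library, for the TE of the knockdowns and the control and for the knockdown ICM. For *Spic*, *Tdh*, *Serpinb1a* and *Ephx2* the Mcrs1 MO TE points lie toward the ICM points and the Max MO TE points lie near 0 or below them, and the control TE points of *Actc1*, *Spic*, *Tdh* and *Mgarp* are far apart.

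Control TE libraries, which took no part in the choice of these genes, place each of them relative to embryos in which neither gene was targeted. The control TE mean lay between the knockdown means for 10 of the 13 genes, and outside them for *Mcrs1*, *Mgarp* and *Serpine2*. The Mcrs1 MO mean was the farther from the control mean for 10 genes and the Max MO mean for 3, *Actc1*, *Malat1* and *Spic*. For *Snord100* the distances were nearly equal, with Max MO 1.71 below and Mcrs1 MO 1.73 above. The 13 genes were chosen for a gap between the knockdown means, which favours a control mean between them. These positions were not counted over all genes, so nothing is read from the counts. For *Serpinb1a* the Mcrs1 MO mean was 3.40 above the control mean on the log2(TPM + 1) scale and the Max MO mean 0.35 below it. For *Serpine2* these distances were 2.12 above and 0.32 above, and for *H2-D1* 1.13 below and 0.43 above. For *Clybl* they were 0.86 below and 0.57 above. Replicates of control TE differed widely for *Actc1*, *Spic*, *Tdh*, *Mgarp*, *Snord100* (10.4 and 0 TPM) and *Ephx2* (0 and 4.26 TPM), so that their place against the control is loose.

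The lineage lists were counted over members that passed the filter on low values. Of 19 TE genes, none passed the threshold in either direction, 13 were higher in Max MO, and the median difference was 0.34 (0.17 with quantile normalization) beside 0.04 over all genes tested. *Gata3*, a TE specifier, was at 666 and 541 TPM in Max MO and at 504 and 429 TPM in Mcrs1 MO, against 1582 and 1979 TPM in control TE. Chosen after their values were seen, 3 TE genes had an unadjusted p under 0.05: *Elf5*, a trophoblast stem cell factor, at 15.3 and 3.86 TPM against 1.21 and 0.459 TPM, *Krt7* at 68.3 and 73.2 TPM against 31.2 and 17.0 TPM, and *Lgals3*, a galectin, with limma adjusted p of 0.313, 0.261 and 0.327. The TE regulators *Cdx2* and *Eomes* had differences of 0.07 and -0.23. Of 17 ICM and pluripotency genes, *Spic* and *Tdh* passed the threshold, 15 were higher in Mcrs1 MO, and the median was -0.48 (-0.75 to -0.35 when 1 TE library was left out, the lowest without replicate 1 of Mcrs1 MO). *Tdgf1*, the NODAL co-receptor Cripto, was at 0 and 49.3 TPM in Max MO and at 193 and 259 TPM in Mcrs1 MO, and its 2 Max MO libraries were too far apart for the threshold (limma adjusted p = 0.195). *Nanog* was at 69.5 and 89.7 TPM against 127 and 216 TPM (limma adjusted p = 0.482). Of 17 primitive endoderm genes none passed, and the median was -0.11 (-0.93 without replicate 2 of Max MO, -0.61 without replicate 2 of Mcrs1 MO and 0 without replicate 1 of Mcrs1 MO). *Sparc*, a matrix protein of that lineage, was nearest, at 15.4 and 12.5 TPM against 30.2 and 32.9 TPM (limma adjusted p = 0.0780), with *Dab2* on the other side at 802 and 1021 TPM against 602 and 611 TPM.

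Genes that separate the lineages in the control libraries gave the same direction as the ICM list. These sets were chosen after the data were seen, from a contrast between control libraries. That contrast called 328 genes (2.92%), 135 of them higher in control TE (1.2%). Of 193 genes at least 2-fold higher in control ICM than in control TE (limma adjusted p under 0.05 in the 12-library fit, 1.72%), 179 were tested here, and 136 of them, or 76.0%, were higher in Mcrs1 MO TE, beside 46.4% of all genes. The median difference was -0.48, with 31.8% of the 179 at an unadjusted p under 0.05 in that direction and 3.35% in the other, beside 4.82% and 5.84% of all genes. On the log2(TPM + 1) scale the median gene of this set was at 3.44 and 3.75 in the Max MO TE, at 4.12 and 4.23 in the Mcrs1 MO TE, and at 2.88 and 3.65 in control TE. Of 128 genes higher in control TE, 84 were higher in Max MO, beside 53.4% of all genes, with a median of 0.15. An unadjusted p under 0.05 was nearly balanced in that set, at 7.81% higher in Max MO and 7.03% higher in Mcrs1 MO. These sets rest on control ICM libraries of which one held TE markers at a high level, as given above. *Ephx2*, *Mgarp* and *Serpinb1a* were the called genes among them.

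No partner gene of MAX or MCRS1 passed the threshold. In the MYC, MAX and MXD list 13 genes were tested and none was called, with a median of -0.04. *Mycn*, a MYC family gene, was at 27.1 and 17.4 TPM in Max MO and at 28.4 and 17.7 TPM in Mcrs1 MO, both below control TE at 121 and 55.6 TPM. *Myc* was at 18.8 and 14.5 TPM against 19 and 16.2 TPM, and *Mga* at 5.97 and 6.10 TPM against 4.82 and 7.45 TPM. Of 10 NSL genes and 17 INO80 genes the only one called was *Mcrs1*, a member of both lists. The NSL median was -0.05. *Kat8*, its acetyltransferase, was at 20.6 and 30.6 TPM in Max MO and at 35.7 and 20.3 TPM in Mcrs1 MO. *Wdr5*, a WD40 subunit shared with histone methyltransferases, was at 42.6 and 62.1 TPM against 88.4 and 88.4 TPM, without overlap (difference -0.77, limma adjusted p = 0.256). The INO80 median was 0.35, with 13 of 17 genes higher in Max MO, and its ATPase *Ino80* was at 3.45 and 3.12 TPM against 2.79 and 1.98 TPM. For *Myc*, *Mycn* and *Kat8* the groups overlapped.

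Of 35 MYC target genes none was called, 26 were higher in Mcrs1 MO, and the median was -0.30. *Npm1*, nucleophosmin, was at 969 and 1186 TPM in Max MO and at 1335 and 1321 TPM in Mcrs1 MO (limma adjusted p = 0.636). The 35 genes of RNA polymerase I and the nucleolus, several of which are in the MYC list too, had a median of -0.31 with 29 higher in Mcrs1 MO. Of 19 germline genes that MAX complexes hold down, none was called and the median was -0.36, but -0.08 without replicate 1 of Max MO, -0.05 without replicate 1 of Mcrs1 MO and -0.64 without its replicate 2. *Sycp3*, a meiotic axis protein, was at 132 and 78.6 TPM against 66.7 and 52.2 TPM, while *Mael*, of the piRNA pathway, was at 11.2 and 42.1 TPM against 85.7 and 54.2 TPM. The 15 genes of PRC1.6, the repressive complex that holds MAX and MGA, had a median of -0.04.

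Of 5 histone and DNA modifiers, a list that the study took from these samples and that is no independent evidence, none was called and the median was -0.43 (-0.14 without replicate 1 of Mcrs1 MO). *Eed*, a core subunit of Polycomb repressive complex 2, was at 137 and 171 TPM in Max MO and at 214 and 255 TPM in Mcrs1 MO (difference -0.61, limma adjusted p = 0.299). *Ezh2*, the methyltransferase of the same complex, was at 34.1 and 30.5 TPM against 30.9 and 32.7 TPM. *Suv39h1*, an H3K9 methyltransferase, was at 20.1 and 16.9 TPM against 23.8 and 29.5 TPM. The broader lists had medians of -0.01 over 19 genes of H3K9 methylation, -0.16 over 9 of Polycomb repressive complex 2 and -0.38 over 10 of DNA methylation (-0.24 without replicate 1 of Max MO and -0.18 without replicate 1 of Mcrs1 MO), with no gene called. *Dppa3*, which protects the maternal genome from demethylation, was at 3789 and 5252 TPM in Max MO and at 5613 and 6288 TPM in Mcrs1 MO.

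No gene of the p53 or stress response lists was called. Of 23 p53 response genes, 19 were higher in Mcrs1 MO and the median was -0.48, with -0.22 without replicate 1 of Max MO and -0.73 without its replicate 2. *Plk2*, a kinase gene induced by p53, was at 16.4 and 32.8 TPM in Max MO and at 144 and 161 TPM in Mcrs1 MO, with control TE at 35.8 and 71.0 TPM (difference -2.66, limma adjusted p = 0.0724). *Cdkn1a*, which encodes the cell cycle inhibitor p21, was at 32.0 and 88.1 TPM against 118 and 89.9 TPM (limma adjusted p = 0.567), and control TE was at 34.3 and 24.6 TPM. *Bax*, a death effector, was at 217 and 207 TPM against 297 and 339 TPM (limma adjusted p = 0.197). Of 19 genes of the integrated stress response and amino acid synthesis, 15 were higher in Max MO and the median was 0.49, but it was 1.28 without replicate 1 of Max MO and -0.09 without its replicate 2, so that its sign and size rest on 1 library. *Pycr1*, of proline synthesis, was at 3.47 and 16.4 TPM in Max MO and listed at 0 in both Mcrs1 MO libraries (limma adjusted p = 0.111). This list differed between the Max MO libraries themselves, since *Ddit3*, the death-linked factor CHOP, was at 20.8 TPM in replicate 1 and 163 TPM in replicate 2, and *Trib3*, its target, at 8.19 and 100.2 TPM. The values of single genes in these paragraphs outside the naming rule, among them *Cdx2*, *Eomes*, *Tdgf1*, *Nanog*, *Sparc*, *Wdr5*, *Sycp3*, *Mael*, *Plk2*, *Pycr1* and *Ddit3*, were chosen after they were seen.

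Epithelial genes were called in neither direction. The 25 genes of junctions and the blastocoel had a median of 0.18. *Cldn7*, a claudin, was at 621 and 710 TPM in Max MO and at 474 and 467 TPM in Mcrs1 MO (limma adjusted p = 0.444), and *Cldn6*, another claudin chosen after its values were seen, lay in the opposite direction at 146 and 152 TPM against 363 and 288 TPM. Of 15 Hippo genes none was called, and *Tead4*, the TE partner of YAP, was at 55.4 and 67.3 TPM against 47.0 and 42.6 TPM. Among genes that every cell uses, the 31 proteasome genes had a median of -0.21 with 29 higher in Mcrs1 MO, and the 77 cytosolic ribosomal protein genes a median of -0.14 with 63 higher in Mcrs1 MO. The 74 nuclear genes of the respiratory chain were at -0.06, the 39 of the spliceosome at 0.08, the 34 of DNA replication at -0.02, the 29 cyclins, CDKs and checkpoint genes at -0.21, and the 19 of glycolysis at 0.07. *Psma7* and *Rplp0*, as examples, were at 1404 and 1396 TPM against 1755 and 1784 TPM, and at 1670 and 1569 TPM against 1684 and 1870 TPM. The other lists had medians between -0.20 and 0.20, of which those of the BCL2 family and of trophoblast differentiation changed sign or reached 0 with quantile normalization, and 30 of the 33 lists held no called gene. In all, 3 of 698 distinct list genes tested passed the threshold (0.43%, beside 0.12% of all genes tested). They are *Mcrs1*, itself a morpholino target, and *Spic* and *Tdh* of the ICM list. The lists were written with earlier results of these data known, so nothing is read from this share. When 1 TE library was left out, the median of 15 of the 33 lists changed sign or came to 0.

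**Figure D4:**
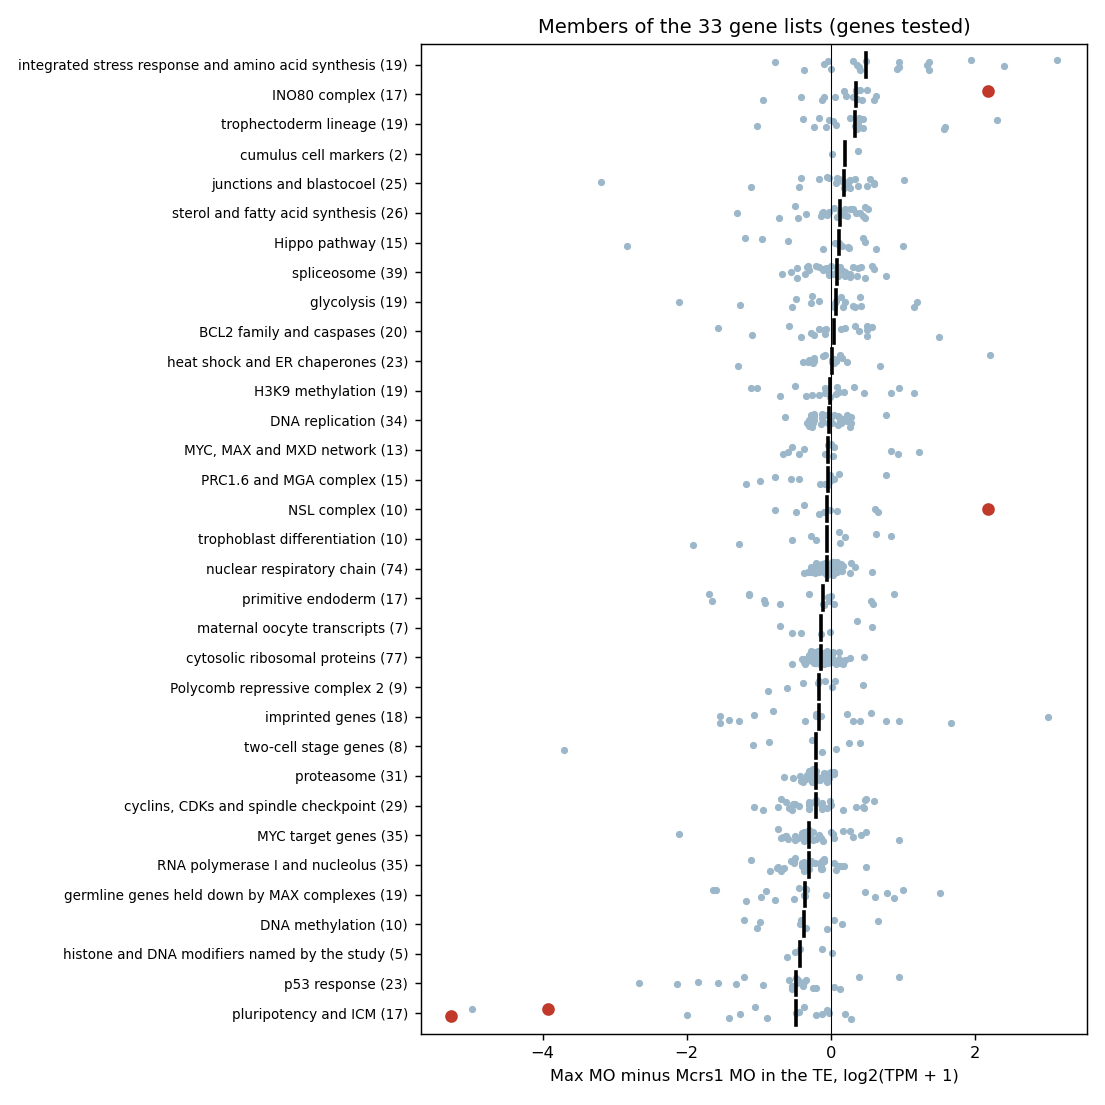
Difference between Max MO and Mcrs1 MO in the TE on the log2(TPM + 1) scale for each tested member of the 33 lists, with the number tested in parentheses, a black bar at the median and red points for called genes. The medians run from -0.48 to 0.49, and the red points are *Mcrs1* in 2 lists and *Spic* and *Tdh* in 1.

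The same knockdowns differed far more in the ICM than in the TE. In the same fit 884 genes (8.15%) passed the threshold in the ICM, with 218 higher in Max MO (2.01%) and 666 higher in Mcrs1 MO (6.14%), and the 2 contrasts share no library. The test of the difference between the lineages called 399 genes (3.68%), 299 of them more to the Max MO side in the TE (2.76%) and 100 more to the Mcrs1 MO side (0.922%). Its 5 smallest p-values belonged to *Gm4926*, *Tspan8*, *Gata3*, *Clic4* and *Lrrfip1*, whose differences were 0.14 to 0.56 in the TE and -3.11 to -2.14 in the ICM. *Tspan8*, a tetraspanin, was at 1145 and 985 TPM in Max MO TE and at 921 and 814 TPM in Mcrs1 MO TE, but at 110 and 134 TPM in Max MO ICM and at 541 and 538 TPM in Mcrs1 MO ICM (difference of differences 2.44, limma adjusted p = 0.00155). *Gata3* was at 97.7 and 72.7 TPM in Max MO ICM and at 457 and 400 TPM in Mcrs1 MO ICM. Its difference between lineages was 2.70 (limma adjusted p = 0.00300). The TE list as a whole had a median of -1.25 in the ICM, with 9 of 19 genes called higher in Mcrs1 MO there, beside the 0.34 in the TE. The summed TE markers of the Mcrs1 MO ICM, given above, move with these results, and their part was not tested.

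Of the 13 genes called in the TE, 7 differed between the lineages and 5 were also called in the ICM in the same direction. The 13 were chosen by their TE difference, which is a part of the test between lineages, so this choice favours passing that test. The genes shared with the ICM were *Mcrs1*, *H2-D1*, *H2-L*, *Clybl* and *Serpine2*. *Clybl* was at 124 and 134 TPM in Max MO ICM and at 63.4 and 55.4 TPM in Mcrs1 MO ICM, a difference of 1.11 (limma adjusted p = 0.00595), and *H2-D1* at 327 and 396 TPM against 158 and 184 TPM (limma adjusted p = 0.00425). *Ephx2* passed in the ICM in the opposite direction, at 60.8 and 72.7 TPM in Max MO ICM and at 12.7 and 10.9 TPM in Mcrs1 MO ICM (limma adjusted p = 0.00979). *Spic*, *Tdh*, *Serpinb1a*, *Mgarp*, *Malat1* and *Actc1* did not pass in the ICM, and for each the test of the difference between lineages did pass. Of these, all but *Spic* had the opposite sign in the ICM. Their ICM differences were -1.74 for *Actc1* (limma adjusted p = 0.0503), -0.48 for *Malat1*, 0.90 for *Mgarp*, 0.63 for *Tdh* and 0.52 for *Serpinb1a*. For *Spic*, at 238 and 485 TPM against 263 and 457 TPM in the ICM, the ICM difference was -0.03.

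**Figure D5:**
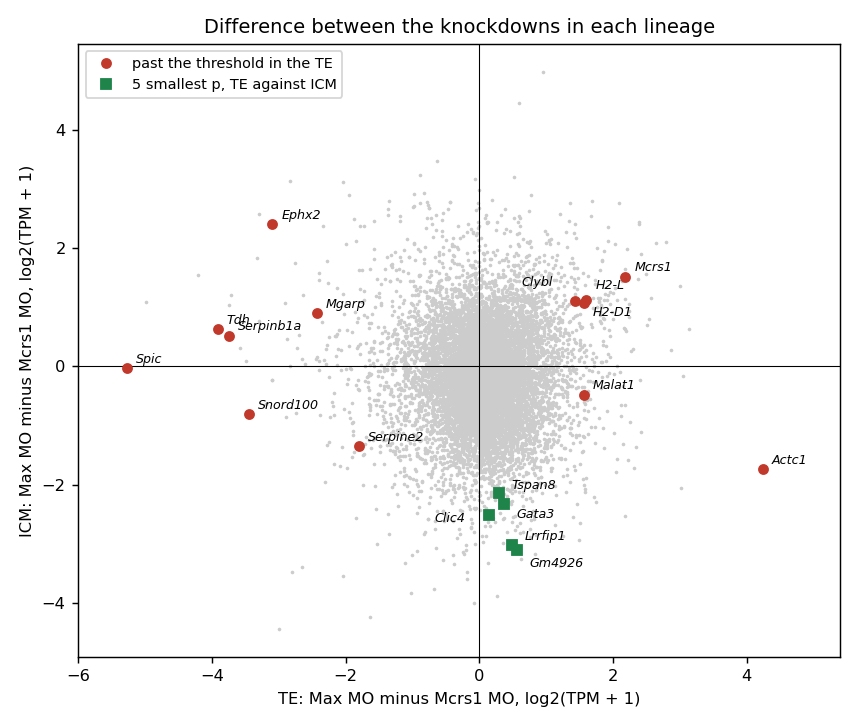
Difference between Max MO and Mcrs1 MO on the log2(TPM + 1) scale in the TE (horizontal) and in the ICM (vertical), 1 point per gene of 10844, with the 13 genes called in the TE in red and the 5 genes of smallest p for the difference between lineages in green. *Mcrs1*, *H2-D1*, *H2-L* and *Clybl* lie to the upper right, *Serpine2* to the lower left, and the green genes lie between 0.14 and 0.56 on the horizontal and between -3.11 and -2.14 on the vertical axis.

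Genes that passed against control with one knockdown alone were looked up in the direct test. In the fit of all 12 libraries, 280 genes (2.5%) passed between Max MO and control TE and 570 (5.08%) between Mcrs1 MO and control TE. Both comparisons use the same control libraries, and the sets below were chosen with the knockdown libraries compared here, so the counts are a description. Of 367 genes that passed with Mcrs1 MO and not with Max MO and were tested directly, 5 were called between the knockdowns (1.36%, beside 0.12% of all genes), *Mcrs1*, *H2-D1*, *H2-L*, *Serpinb1a* and *Serpine2*, and 137 had an unadjusted p under 0.05 (37.3%, beside 10.7% of all genes). Of 85 genes that passed with Max MO alone, none was called by the same limma test and 39 had an unadjusted p under 0.05 (45.9%). Of 182 genes that passed with both, 16 had one (8.79%) and none was called. The way these sets were chosen raises such shares, and nothing is read from them.

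CACGTG, which reads the same on both strands, was found in the promoter window of 12.2% of the 8132 tested genes with a RefSeq promoter and of 8.09% of all 27025 symbols of the table. None of the 8 called genes with a window held it, 5 of them higher in Max MO and 3 higher in Mcrs1 MO. Among genes with an unadjusted p under 0.05 the motif was in 13.2% of 479 higher in Max MO and in 12.8% of 376 higher in Mcrs1 MO. These shares are close to that of the genes tested.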

How the data were processed

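RNA was measured by Smart-seq2 in 12 libraries from fertilized mouse blastocysts, of which 8 knockdown libraries, 2 for each of 4 groups, entered the fit. Per the labels and the methods, the authors trimmed reads with cutadapt 1.16, aligned them to mm10 with HISAT2 and assembled and quantified transcripts with StringTie. Each deposited gene table gives TPM, used here as a signal because unannotated loci are listed as well and carry a further sum of their own, together with FPKM and coverage values that the authors deposited per gene. Rows with a gene name were kept, and TPM was summed per gene. Aligned bases were taken from the ratio of deposited coverage to deposited FPKM, and counts were not used here. Columns of no sample of the series: 0.

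Genes with a mean of at least 1 TPM were tested with limma 3.58.1 in R 4.3.3 (moderated fit with a mean trend) on log2(TPM + 1), which understates the fold change of low genes. Calls needed a difference of at least 2-fold and a p under 0.05 after Benjamini-Hochberg adjustment. ICM libraries entered the fit for the spread, and the interaction term tested TE against ICM differences. The fit was tested on simulated data. Tables were handled in Python 3.11.15 with pandas 2.3.3.

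Named genes were *Max*, *Mcrs1*, up to 12 non-overlapping genes per direction with a mean of at least 5 TPM by size of change, filled by the smallest unadjusted p, called list members, up to 3 of the most abundant members of other lists, and the 5 smallest interaction p-values. Genes of uncertain mapping were left out of those chosen by size of change or unadjusted p. This filter was not applied to the interaction genes, among them *Gm4926*. Members and lists were chosen with earlier results of these data known. The 14 alternatives were the pseudocount, filter, scaling, row choice, libraries in the fit, replicate block, transcript length and leaving out each of the 4 TE libraries.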

Additional observations from a re-analysis of the deposited data

Results flagged for a closer look

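For 14 of the named genes the difference between Max MO and Mcrs1 MO was not the same in the TE as in the ICM, by the interaction term of the limma fit (adjusted p under 0.05 for each). The values below are the TE difference minus the ICM difference on the log2(TPM + 1) scale, with Max MO minus Mcrs1 MO within each lineage. Among genes higher in Max MO TE, the value was 5.98 for *Actc1* and 2.04 for *Malat1*. Among genes higher in Mcrs1 MO TE, it was -5.24 for *Spic*, -4.54 for *Tdh*, -4.26 for *Serpinb1a*, -3.33 for *Mgarp* and -5.50 for *Ephx2*. For *Rnf130* and *Tcl1*, which missed the threshold in the TE, it was -2.90 and -2.65. The genes with the smallest interaction p were *Gm4926* at 3.67, *Tspan8* at 2.44, *Gata3* at 2.70, *Clic4* at 2.65 and *Lrrfip1* at 3.51. The last 5 were named by this same test. The other genes were named for their TE difference, which is a part of the interaction term, so their choice favours passing it. ICM markers in the TE libraries and TE markers in the Mcrs1 MO ICM libraries moved with these values, and their part was not tested.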

How the results depend on the processing

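Of 13 genes called in the TE, the count was 8 with a pseudocount of 0.1, 0 with all genes above 0 TPM (1498 at an unadjusted p under 0.05), 58 in the fit of the 4 TE libraries alone and 3 in the fit of all 12. Leaving out 1 library gave 1 to 24. The 399 genes of the TE against ICM test became 66 with all genes, 0 in the fit of all 12 libraries by limma, and 25 to 133 without 1 library. Calls among list genes, 3 in the report, were 1 with a pseudocount of 0.1, 0 with all genes, 8 in the fit of 4, 1 in the fit of 12, and 1 to 6 without 1 library. *Mcrs1* kept its difference of 2.18 with all genes but missed the threshold (adjusted p = 0.051), and passed it in the other 13 alternatives. *Clic4*, at 0.14 in the TE, changed sign when 1 library was left out, with values from -0.06 (without replicate 2 of Mcrs1 MO) to 0.34. The cause was not tested.

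Replicate numbers are shared between the groups, and deviations of same-numbered TE libraries had a correlation of -0.00773. Such a value over all genes cannot show whether the numbers pair the libraries. Same-numbered TE and ICM libraries were not compared in this way. With the replicate block the TE count was 11, of which 8 were among the 13, and the TE against ICM count 150.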
